A study of Mus musculus with 9 samples.

Results

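The levels of 10 genes that mark cerebellar granule cells were followed in RNA-seq read counts of mouse cerebellar tissue. They are 10 of the 37816 genes in the counts and were listed by name as known markers, not by a threshold on measured values, with earlier results of these data known: Gabra6, Neurod1, Pax6, Zic1, Zic2, Cbln1, Cbln3, Fat2, Etv1 and Slc17a7. All 10 were detected in every library and passed the filter on low counts, which kept 19353 genes. The 9 libraries came from 18-month-old mice on a C57BL/6 background, with 3 libraries in each of 3 groups. Mice of the 15Q group carried a yeast artificial chromosome (YAC) transgene of human ATXN3 with 15 CAG repeats, and mice of the 84Q and 84Q+IGF-1 groups carried an expanded allele with 84 repeats, the change behind spinocerebellar ataxia type 3. All 3 groups therefore carried a human ATXN3 transgene in addition to mouse Atxn3, no group lacked it, and the 15Q and 84Q mice came from different sources. Weekly intraperitoneal injections ran from 9 to 18 months of age, with IGF-1 at 50 mg/kg in the 84Q+IGF-1 group and PBS in the other groups, which the sample labels call untreated. The labels name cerebellar tissue only, so a library holds all cell types of the piece that was taken.

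Granule cells are the small glutamatergic neurons of the inner layer of the cerebellar cortex and the most numerous neurons of the brain. They receive mossy fibres, are held in check by the GABA of Golgi cells, and send parallel fibres to the dendrites of Purkinje cells. Their precursors, marked by Atoh1, divide after birth under the drive of Sonic hedgehog, leave the cell cycle with Neurod1, Pax6 and Zic factors, and switch on the genes of the mature cell as they settle in the inner layer. In bulk tissue, fewer granule cells and less RNA of these genes per cell cannot be told apart.

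The levels of these genes were close to each other in all 3 groups. None of the 10 was called in any comparison, where a call needs an adjusted p under 0.1 in edgeR's quasi-likelihood test and a fold change of at least 1.5. Over all genes tested, 2.14% were called in 84Q against 15Q, 2.25% in 84Q+IGF-1 against 15Q and 0.0% in 84Q+IGF-1 against 84Q. None of the 10 had an adjusted p under 0.1 at any fold change either, against 4.8%, 3.67% and 0.0% of all genes in the same order of comparisons. At an unadjusted p under 0.05, 1 member (Slc17a7) passed in 84Q against 15Q and 0 in each of the other comparisons, and DESeq2 called 0 in each. Of all genes tested, 19.4% had an unadjusted p under 0.05 in 84Q against 15Q, 17.7% in 84Q+IGF-1 against 15Q and 4.68% in 84Q+IGF-1 against 84Q, and counts at that threshold are to be read against these shares.

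The width of the intervals limits how large a difference could have been missed. The 30 log2 fold changes of 10 genes in 3 comparisons ran from -0.16 to 0.22, with standard errors of 0.05 to 0.11. All 30 of the 95% intervals lay inside a 1.5-fold change in either direction, which is 0.585 on the log2 scale, and 29 of them held 0. After widening for 30 intervals by Bonferroni's rule, the bounds reached from -0.54 to 0.57 and all 30 still lay inside 1.5-fold. The median log2 fold change of the 10 genes was -0.02 in 84Q against 15Q, 0.02 in 84Q+IGF-1 against 15Q and 0.04 in 84Q+IGF-1 against 84Q, beside medians of all genes tested between -0.01 and -0.00.

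**Figure D1:**
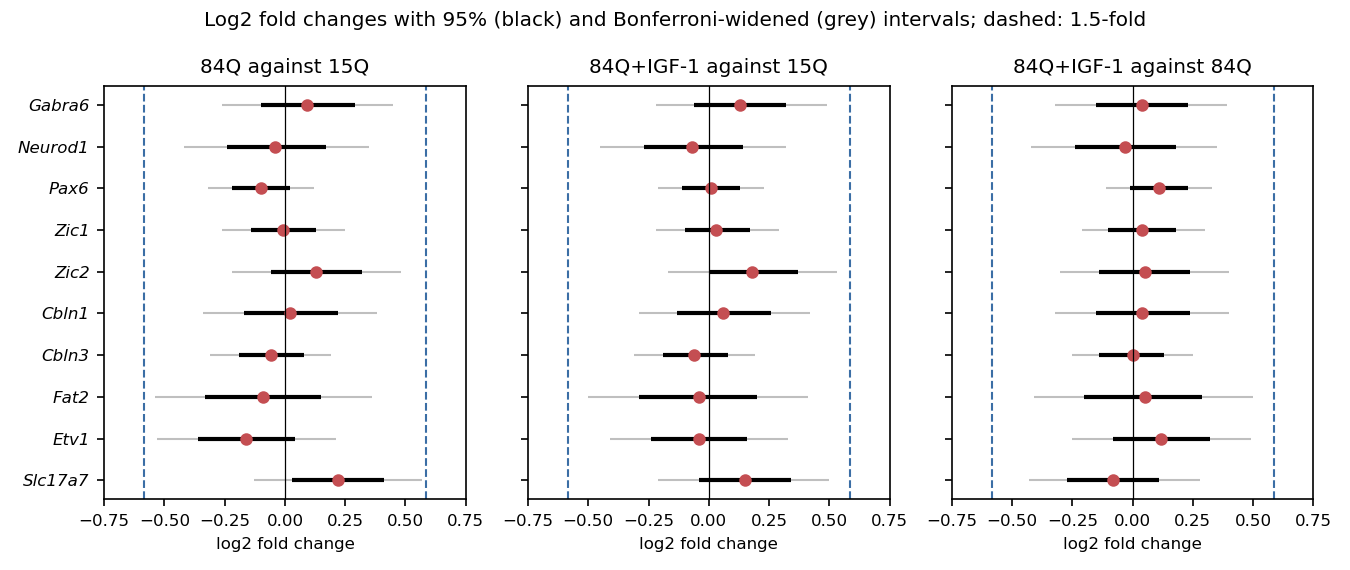
Log2 fold change of each granule cell gene (x axis) in the 3 comparisons, from the fit to all 9 libraries. Points are the estimates, black bars the 95% intervals, grey bars the intervals widened for 30 comparisons, and dashed lines mark 1.5-fold in either direction; no bar reaches a dashed line, and the only black bar that leaves out 0 is that of Slc17a7 in 84Q against 15Q.

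The member genes were measured with many reads. A member had 2364 to 102260 counts in a library and counting error alone was 0.313 to 2.06% of its level, while the coefficient of variation within groups was 3.61 to 11.6%. Levels below are CPM, read counts set against the library total after TMM scaling, and levels of different genes are compared only as TPM, which also divides by the exon length of the gene. Positions are those of GENCODE vM21 on GRCm38.

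The start regions of a pair of these genes are shown because both hold letters that the nuclear factor I (NFI) family is known to bind, and its members Nfia, Nfib and Nfix are expressed in granule cells and were measured here. The windows run from 250 bases before to 50 after the RefSeq start on GRCm38.p6 and are written 5′ to 3′ on the strand of the gene, with capitals at the letters TTGGCA or their reverse complement TGCCAA. The Gabra6 window lies at chr11:42321023-42321322 and the Cbln3 window at chr14:55884207-55884506, both on the minus strand.
Gabra6: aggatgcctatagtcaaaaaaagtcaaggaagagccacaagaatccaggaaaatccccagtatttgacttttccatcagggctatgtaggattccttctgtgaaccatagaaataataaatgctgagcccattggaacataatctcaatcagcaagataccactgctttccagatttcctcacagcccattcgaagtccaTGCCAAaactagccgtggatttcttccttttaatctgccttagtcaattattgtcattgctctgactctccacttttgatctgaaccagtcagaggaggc
Cbln3: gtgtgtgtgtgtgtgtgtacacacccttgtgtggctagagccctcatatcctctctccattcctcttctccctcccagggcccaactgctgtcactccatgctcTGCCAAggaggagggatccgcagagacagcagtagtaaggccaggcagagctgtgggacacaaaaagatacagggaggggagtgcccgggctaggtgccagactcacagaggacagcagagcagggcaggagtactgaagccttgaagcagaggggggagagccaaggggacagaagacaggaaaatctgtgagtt
For 8 of the 10 genes 10 windows were at hand, Pax6 and Etv1 having 2 each. The letters TTGGCA, read on both strands, occurred in 3 of these 10 windows (of Gabra6, Cbln3 and Etv1), beside 14.1% of all 32851 windows. A motif of the basic helix-loop-helix factors, CAGATG, occurred in 1 of the 10 (of Etv1), beside 17.2% of all windows. No window was at hand for Cbln1 and Zic2. These matches describe the letters only, and factor binding was not measured.

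Among the transcription factors, Neurod1 (chr2:79452521-79456751) is a basic helix-loop-helix factor of the step from dividing precursor to neuron. It measured 469, 482 and 515 CPM in the 15Q libraries, 462, 447 and 521 CPM in 84Q, and 517, 485 and 397 CPM in 84Q+IGF-1. The groups overlapped, and the lowest library was a replicate of 84Q+IGF-1. The log2 fold change was -0.04 (SE 0.09) in 84Q against 15Q and -0.07 (SE 0.09) in 84Q+IGF-1 against 15Q. Of its exon bases, 7.37% also belong to Cerkl on the same strand, so a small share of its reads could be counted to that gene or dropped.

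Pax6 (chr2:105668900-105697364), a paired-box factor that granule neurons keep into adulthood, had the lowest level of the 10, also per length. It measured 138, 141 and 149 CPM in 15Q, 131, 132 and 135 CPM in 84Q, and 149, 135 and 146 CPM in 84Q+IGF-1. All 84Q libraries lay below all 15Q libraries, and the 84Q+IGF-1 libraries spanned the range between. The difference of 84Q from 15Q was -0.10 (SE 0.05) on the log2 scale with an adjusted p of 0.323. That of 84Q+IGF-1 from 84Q was 0.11 (SE 0.05), with an adjusted p of 0.969.

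Zic1 (chr9:91358058-91365810) and Zic2 (chr14:122475435-122479852) are zinc finger factors of the dorsal hindbrain that stay on in granule neurons. Zic1 measured 1025, 987 and 1013 CPM in 15Q, 967, 1002 and 1042 CPM in 84Q, and 1114, 1001 and 981 CPM in 84Q+IGF-1. The 3 groups overlapped, and its log2 fold changes lay between -0.01 and 0.04. Zic2 measured 413, 331 and 341 CPM in 15Q, 376, 389 and 423 CPM in 84Q, and 436, 395 and 399 CPM in 84Q+IGF-1. A single 15Q library, replicate 1, reached the levels of the other groups, and the remaining 15Q libraries were lower than every other library. Zic2 stood 0.18 (SE 0.09) higher on the log2 scale in 84Q+IGF-1 than in 15Q, with an adjusted p of 0.296. Without 15Q replicate 1 that difference was 0.29 with an adjusted p of 0.079, and over all alternatives its adjusted p ran from 0.079 to 0.589; the fold change stayed under 1.5.

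Etv1 (chr12:38779380-38870484) is an ETS factor that is switched on as granule neurons mature and become active. It measured 614, 675 and 749 CPM in 15Q, 672, 547 and 601 CPM in 84Q, and 641, 712 and 627 CPM in 84Q+IGF-1. The groups overlapped, with the lowest library in 84Q and the highest in 15Q. Its estimate in 84Q against 15Q, -0.16 (SE 0.09), was the lowest of the 30, with a 95% interval of -0.36 to 0.04 and an adjusted p of 0.351. Of the 31-base words of its transcripts, 9.97% occur in another gene, mainly Gm5454, so reads from those stretches may have been lost or shared.

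Slc17a7 (chr7:45163949-45176142) encodes the vesicular glutamate transporter VGLUT1, which fills the synaptic vesicles of parallel fibres. It measured 337, 352 and 338 CPM in 15Q, 372, 416 and 410 CPM in 84Q, and 435, 366 and 335 CPM in 84Q+IGF-1. All 84Q libraries lay above all 15Q libraries, while 84Q+IGF-1 held both the highest and the lowest library of the 9. The log2 fold change of 84Q against 15Q was 0.22 (SE 0.09, 95% interval 0.03 to 0.41), the largest of the 30, with an adjusted p of 0.193. Without the filter on low counts its adjusted p was 0.0417, and leaving out replicate 1 of 84Q+IGF-1 gave 0.0891, within a range of 0.0417 to 0.791 over the alternatives, and it was at no setting past 1.5-fold. In 84Q+IGF-1 against 15Q the value was 0.15 (SE 0.09) with an adjusted p of 0.409.

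Gabra6 (chr11:42306437-42321072) encodes the α6 subunit of the GABA-A receptor, which among cerebellar neurons is a hallmark of mature granule cells. It measured 402, 379 and 420 CPM in 15Q, 434, 389 and 459 CPM in 84Q, and 494, 428 and 396 CPM in 84Q+IGF-1. Libraries of every group lay among those of the others, and replicate 1 of 84Q+IGF-1 was the highest. Its log2 fold changes were 0.09 (SE 0.09) in 84Q against 15Q, 0.13 (SE 0.09) in 84Q+IGF-1 against 15Q and 0.04 (SE 0.09) in 84Q+IGF-1 against 84Q.

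Cbln1 (chr8:87468405-87472609) and Cbln3 (chr14:55878913-55884392) encode cerebellins, secreted proteins of the C1q family. Cbln1 links parallel fibres to the receptor GluD2 on Purkinje cells, and Cbln3 is secreted only together with Cbln1. Cbln1 measured 763, 744 and 781 CPM in 15Q, 825, 726 and 772 CPM in 84Q, and 923, 718 and 752 CPM in 84Q+IGF-1. Cbln3 measured 1826, 1693 and 1749 CPM in 15Q, 1671, 1711 and 1682 CPM in 84Q, and 1795, 1688 and 1575 CPM in 84Q+IGF-1. Both overlapped between all groups, and replicate 1 of 84Q+IGF-1 stood above the rest for Cbln1. The log2 fold changes were 0.02 (SE 0.09) for Cbln1 and -0.06 (SE 0.06) for Cbln3 in 84Q against 15Q.

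Fat2 (chr11:55250609-55336564) encodes a giant cadherin carried on parallel fibres. It measured 855, 757 and 1015 CPM in 15Q, 861, 881 and 728 CPM in 84Q, and 872, 923 and 758 CPM in 84Q+IGF-1. It was the most variable of the 10 between replicates, and each group held a library between 728 and 758 CPM and another at or above 881 CPM. Its log2 fold change of -0.09 (SE 0.11) in 84Q against 15Q turned to 0.04 when 15Q replicate 3 was left out.

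**Figure D2:**
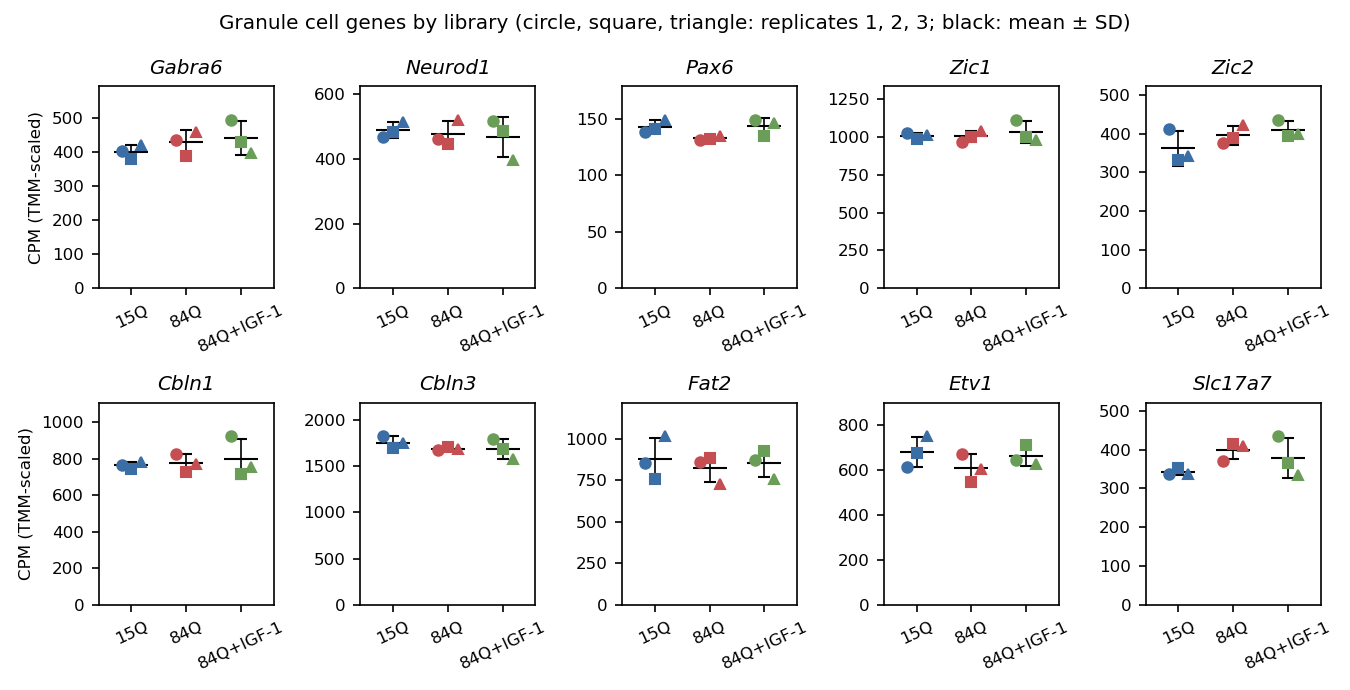
CPM (y axis, from 0) of each granule cell gene in the 9 libraries by group (x axis), with replicates 1, 2 and 3 as circle, square and triangle and the mean and SD of each group in black. The groups of a gene overlap except 84Q and 15Q for Pax6 (131 to 135 against 138 to 149 CPM) and Slc17a7 (372 to 416 against 337 to 352 CPM).

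The groups did not overlap for 2 of the 10 genes in 84Q against 15Q (Pax6 lower and Slc17a7 higher in 84Q), for 0 in 84Q+IGF-1 against 15Q and for 0 in 84Q+IGF-1 against 84Q. Over all genes tested the groups did not overlap for 25.4%, 24.7% and 8.46% in the same order. The share of 2 in 10 was near that background. Signs were mixed, with 4 genes higher and 6 lower in 84Q than in 15Q, 6 higher and 4 lower in 84Q+IGF-1 than in 15Q, and 7 higher and 3 lower in 84Q+IGF-1 than in 84Q. These splits rested on single libraries. Without 15Q replicate 3 they were 7 higher and 3 lower in 84Q against 15Q, and 8 higher and 2 lower in 84Q+IGF-1 against 15Q. Without 84Q+IGF-1 replicate 1 they were 3 and 7 in 84Q+IGF-1 against 15Q, and 4 and 6 in 84Q+IGF-1 against 84Q. Without 84Q+IGF-1 replicate 3 all 10 were higher in 84Q+IGF-1 than in 84Q. The median size of the change, whatever its sign, was 0.09, 0.06 and 0.05 on the log2 scale in the 3 comparisons, beside 0.09, 0.08 and 0.05 in the 2460 genes of similar level, those at 100 to 2000 CPM.

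Per length, the granule cell genes took some of the highest places in the tissue. Cbln3 had a mean of 1400 TPM ± 63.2 (SD, n = 9) and ranked 34 among the genes tested, and Cbln1 followed with 1021 TPM ± 74.5. Zic1 (710 TPM), Neurod1 (697 TPM) and Gabra6 (676 TPM) formed a middle set whose neighbours overlapped in range, Zic1 being above Neurod1 in 5 of 9 libraries and Neurod1 above Gabra6 in 6 of 9. Zic2 (538 TPM) lay below them in every library. Slc17a7 (276 TPM), Fat2 (233 TPM) and Etv1 (195 TPM) again overlapped with their neighbours. Pax6 was lowest at 47.6 TPM ± 2.93 and ranked 4279. With the length of the longest transcript in place of all exons, Pax6 was still the lowest and Fat2 and Etv1 exchanged places, the other 8 keeping their rank.

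**Figure D3:**
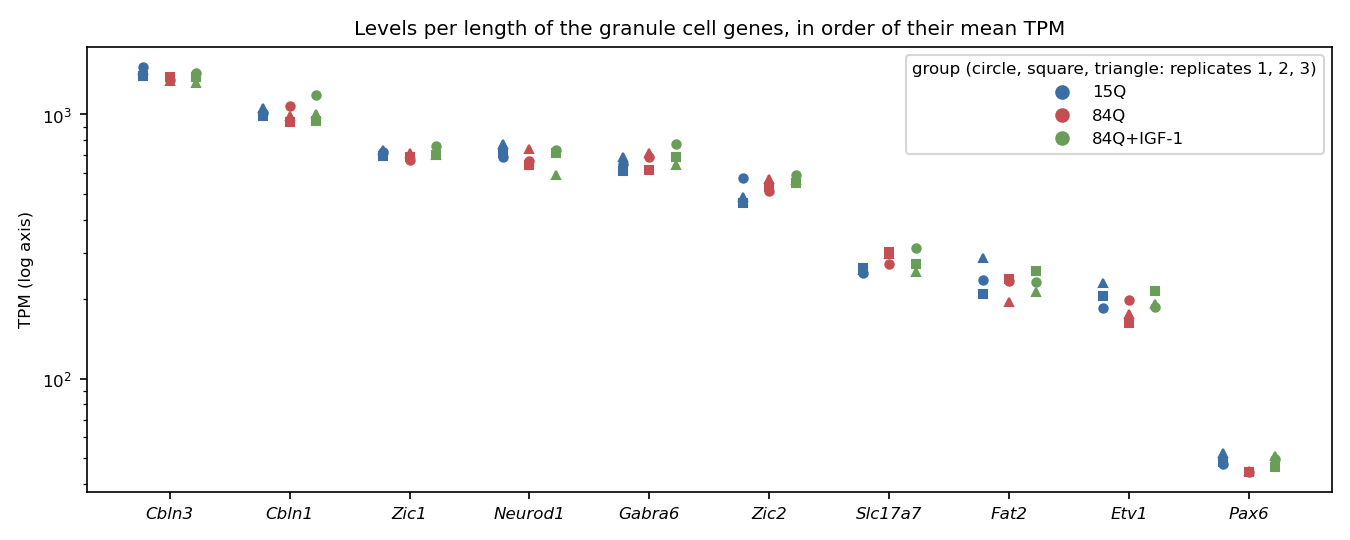
TPM (log axis) of the 10 granule cell genes in the 9 libraries, in order of their means, with groups in colour and replicates as symbols. Cbln3 lies at 1314 to 1509 TPM in all libraries and Pax6 at 44.3 to 52.3 TPM.

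The other members were compared with relatives of their gene families. Slc17a7 at 276 TPM stood above Slc17a6, the transporter VGLUT2 of brainstem and cerebellar nuclei, at 12.2 TPM, and Slc17a8 at 0.132 TPM. Zic1 and Zic2 were above Zic5 (67.9 TPM) and Zic4 (24.1 TPM), and Neurod1 was above Neurod2 (219 TPM). The other cerebellins, Cbln4 at 1.24 TPM and Cbln2 at 0.572 TPM, were far below Cbln1 and Cbln3. Fat2 exceeded Fat1 (103 TPM), and Etv1 exceeded Etv5 (82.1 TPM) and Etv4 (19.3 TPM). The lowest library of each member in this comparison lay above the highest library of every relative named here. Of 18 relatives, 16 passed the filter and 0 were called in each comparison by edgeR, with 1, 3 and 2 at an unadjusted p under 0.05 (19.4%, 17.7% and 4.68% of all genes) and 0 called by DESeq2.

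Spread between replicates was not the same for all. The coefficient of variation within groups was 3.61% for Pax6, 3.86% for Cbln3 and 4.21% for Zic1, and these 3 lay under the median of 5.06% of the 2460 genes of similar level. The other 7 lay above it, up to 11.6% for Fat2, and the median of the 10 was 7.78%.

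Part of the spread was shared between the genes and lay in single libraries of the 84Q+IGF-1 group. Summed over the 10 genes, the 15Q libraries averaged 6817 CPM ± 265 (SD, n = 3), the 84Q libraries 6728 ± 75.5 and the 84Q+IGF-1 libraries 6865 ± 506. Replicate 1 of 84Q+IGF-1 had the highest sum of the 9 libraries, 7377 CPM, and replicate 3 the lowest, 6366 CPM. Replicate 1 was the highest of the 9 libraries for 6 of the 10 genes (Gabra6, Pax6, Zic1, Zic2, Cbln1 and Slc17a7). In the same library the summed oligodendrocyte genes were at 3097 CPM, the lowest of the 9, where the others had 3837 to 5085 CPM. Slc17a6 was at 0.729 CPM there against 12.5 to 26.8 CPM in the other libraries, and the summed brainstem and midbrain genes were at 7.68 against 24.0 to 37.6 CPM. Slc17a6 is itself on that list and a large part of its sum, so the sum is not a separate observation. Th, also on the list, was at 6.39 CPM there against 7.83 to 15.4 CPM in the other libraries. The part of these differences in the levels of the granule cell genes was not tested. Without that library the median log2 fold change of the 10 genes in 84Q+IGF-1 against 84Q was -0.03 in place of 0.04.

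The 5 genes whose pattern over the 9 libraries was most like the mean pattern of the members were Fam13a, Rasgef1a, Ust, Ddhd2 and Parp11. Their mean absolute difference from it was 0.021 to 0.026 on the log2 scale, beside a median of 0.092 over the 10320 genes with at least 10 CPM.

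Other features of the libraries touch the tissue as a whole. Choroid plexus genes summed to 1119 to 2059 CPM in replicates 1 and 3 of 15Q and replicate 2 of 84Q, and to 119 to 210 CPM in the other 6 libraries. Of the 9 choroid plexus genes none was called by edgeR or DESeq2, and 0, 8 and 6 had an unadjusted p under 0.05 in the 3 comparisons, where the same share of all genes was 19.4%, 17.7% and 4.68%. Leaving out those 3 libraries keeps 1 library of 15Q, 2 of 84Q and 3 of 84Q+IGF-1, so the lone 15Q library is assumed to vary like the other groups. Calls over all genes then fell from 414 to 94 in 84Q against 15Q and from 435 to 189 in 84Q+IGF-1 against 15Q, and a call lost or absent in that fit is no measure of the size of a change. In it the log2 fold changes of the 10 genes ran from -0.08 to 0.32 over the 3 comparisons. Xist, transcribed from the silenced X, was at 719 to 949 CPM in 4 libraries (replicates 2 and 3 of 15Q, replicate 1 of 84Q, replicate 2 of 84Q+IGF-1) and at 0.285 to 1.15 CPM in the other 5. The Xist-high libraries hold 2 of 15Q and 1 of each other group, and the Xist-low libraries 1 of 15Q and 2 of each other group, and no test was run within these sets. As a description, the log2 ratios of single members within these sets ran from -0.20 (Cbln1 in 84Q+IGF-1 against 84Q) to 0.29 (Slc17a7 in 84Q against 15Q), with medians over the 10 genes of -0.04 to 0.04. Library totals ran from 17482654 counts (84Q replicate 3) to 58269196 counts (15Q replicate 3). Mouse Atxn3 averaged 29.1 CPM in the 15Q libraries and 27.0 CPM in each of the other groups, with an adjusted p of 0.494 in 84Q against 15Q, and it does not check the human transgene.

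A further list of 20 genes of granule cells was read beside them. None of the 20 was called by edgeR or DESeq2 in any comparison, with 6, 4 and 0 at an unadjusted p under 0.05, against 19.4%, 17.7% and 4.68% of all genes. Of the 6 in 84Q against 15Q, Gabrd was higher, and Camk4, Mef2a, Nfia, Nfib and Nfix were lower in 84Q. Nfia was at -0.12 (SE 0.06) with an adjusted p of 0.255 and Nfib at -0.24 (SE 0.09) with an adjusted p of 0.178. Their sums averaged 6847 CPM ± 190 over the 15Q libraries, 6689 ± 180 over 84Q and 6898 ± 379 over 84Q+IGF-1 (SD, n = 3). The 3 with the highest CPM were Chn2, a Rac regulator, Grin2c, the NMDA receptor subunit of mature granule cells, and Nfix. Chn2 differed by 0.05 (SE 0.06) and Grin2c by 0.14 (SE 0.10) on the log2 scale in 84Q against 15Q. Nfix had 651 CPM in 15Q and 578 CPM in 84Q, a log2 fold change of -0.17 (SE 0.05) with an adjusted p of 0.127. The largest estimate was that of Camk4, a calcium-dependent kinase of granule cells, at -0.63 (SE 0.20) in 84Q against 15Q with an adjusted p of 0.126. Its 15Q libraries measured 88.2, 108 and 177 CPM and its 84Q libraries 91.6, 77.1 and 72.8 CPM, so the groups overlapped and a single 15Q library lay far above the rest.

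The protein partners of the members held a single call. Of the 9 partners listed (subunits β2, β3, γ2 and δ of the GABA-A receptor, the GluD receptors and presynaptic binding partners), Gabrb2 was called lower in 84Q than in 15Q, 1 of 9 beside 2.14% of all genes. At an unadjusted p under 0.05, 5 of the 9 passed in 84Q against 15Q, 3 in 84Q+IGF-1 against 15Q and 0 in 84Q+IGF-1 against 84Q, where 19.4%, 17.7% and 4.68% of all genes did. The 5 became 3 when replicate 2 or 3 of 15Q or replicate 3 of 84Q was left out, with Xist as a covariate, and without the libraries high in choroid plexus genes. Gabrb2 encodes the β2 subunit, which forms receptors with α6 in granule cells. It measured 168, 205 and 227 CPM in 15Q, 145, 139 and 111 CPM in 84Q, and 117, 188 and 153 CPM in 84Q+IGF-1. All 84Q libraries lay below all 15Q libraries, and the 84Q+IGF-1 libraries spread over both. The log2 fold change was -0.60 (SE 0.16), just past the 1.5-fold limit, with an adjusted p of 0.0821. The call was lost without 15Q replicate 2 (adjusted p of 0.234), 15Q replicate 3 (0.281), 84Q replicate 2 (0.118) or 84Q replicate 3 (0.257). With Xist as a covariate the fold change was -0.46 (SE 0.11), under 1.5-fold, with an adjusted p of 0.0893, and the call was lost there too. Without the libraries high in choroid plexus genes, with 1 library of 15Q left, it was at -0.67 (SE 0.23) with an adjusted p of 0.443, and over all alternatives the adjusted p ran from 2.25e-15 to 0.443. The direction was the same in each of them. Gabra6 itself was at 0.09 (SE 0.09) in the same comparison, and the difference between the changes of Gabrb2 and Gabra6 was not tested.

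Some other genes of these lists passed the adjusted p alone, below 1.5-fold, and are named because their values were seen to pass. Gabrd, the δ subunit that joins α6 in receptors outside the synapse, was at 0.27 (SE 0.07) in 84Q+IGF-1 against 15Q with an adjusted p of 0.0934. Gabra2 was at -0.48 (SE 0.08) in 84Q against 15Q with an adjusted p of 0.0107. Etv5, a relative of Etv1, was at 0.39 (SE 0.07) in 84Q+IGF-1 against 15Q with an adjusted p of 0.0203.

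Of 7 genes of granule cell precursors, 6 passed the filter and the defining one, Atoh1, did not, with 3 counts in a single library and 0 in the other 8. Mki67 and Top2a, proteins of dividing cells of any kind, were called lower in 84Q and in 84Q+IGF-1 than in 15Q. Mki67 measured 3.64, 5.09 and 6.82 CPM in 15Q, and 0.484 to 1.31 CPM in the 84Q libraries. Between 84Q and 15Q it differed by -2.81 (SE 0.41) on the log2 scale with an adjusted p of 0.00479. Top2a differed by -2.26 (SE 0.41) with an adjusted p of 0.0185. At an unadjusted p under 0.05, 4 of the 6 genes passed in each comparison with 15Q and 0 in 84Q+IGF-1 against 84Q, where 19.4%, 17.7% and 4.68% of all genes did, and 1 of the 6 estimates was above 0 in each comparison with 15Q. The 4 in 84Q against 15Q became 2 without 84Q replicate 2, and without the libraries high in choroid plexus genes. Gli1, a transcription factor of hedgehog signalling, was among the 4 with 23.2 CPM in 15Q, 20.3 CPM in 84Q and 20.1 CPM in 84Q+IGF-1. Its libraries in 15Q lay above those of the other groups, at -0.19 (SE 0.08) in 84Q and -0.21 (SE 0.08) in 84Q+IGF-1, each with an adjusted p of 0.219. Ccnd2, a cyclin of dividing cells, was called lower in 84Q+IGF-1 against 15Q, at -0.69 (SE 0.16) with an adjusted p of 0.0542. Its call was lost without 15Q replicate 2 (0.163), 15Q replicate 3 (0.234) or 84Q+IGF-1 replicate 1 (0.183), and with Xist as a covariate, where the fold change was -0.55 (SE 0.14) and under 1.5-fold. Without the libraries high in choroid plexus genes it was again at -0.69 (SE 0.18), with an adjusted p of 0.212. Of a list of 8 intestinal genes, 5 passed the filter (Fabp1, Vil1, Muc13, Alpi and Lgals4). All 5 were called lower in both comparisons with 15Q, where 2.14% and 2.25% of all genes were called. Fabp1 and Alpi had 0 counts in every 84Q library and passed the filter through the 15Q libraries, so they could only come out lower. The list summed to 22.8 to 35.4 CPM in the 15Q libraries and 4.24 to 6.07 CPM in the other 6. Fabp1, a fatty acid binding protein of the gut lining, had 151 to 527 counts in the 15Q libraries and at most 1 count in any other. The part of such RNA in the levels of Mki67 and Top2a was not tested. Without the libraries high in choroid plexus genes, Mki67 in 84Q against 15Q was at -2.52 (SE 0.56) with an adjusted p of 0.175, and Top2a at -1.94 (SE 0.44) with an adjusted p of 0.184. Both were still called in 84Q+IGF-1 against 15Q, at -3.69 (SE 0.53, adjusted p of 0.0129) and -2.21 (SE 0.39, adjusted p of 0.0463).

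The cells around the granule cells were read from lists of their markers. Of 10 Purkinje cell genes none was called by edgeR or DESeq2, with 2, 2 and 0 at an unadjusted p under 0.05, against 19.4%, 17.7% and 4.68% of all genes. Car8, a carbonic anhydrase relative, averaged 1413 CPM over the 15Q libraries, 1430 CPM over 84Q and 1470 CPM over 84Q+IGF-1, and the largest estimates were those of Slc1a6, a glutamate transporter of Purkinje cells, and Pcp2 in 84Q against 15Q. Slc1a6 was at 0.34 (SE 0.08) with an adjusted p of 0.0643 and Pcp2 at 0.34 (SE 0.10) with an adjusted p of 0.0936, both under 1.5-fold. In that comparison 9 of the 10 estimates were above 0, with a median of 0.10, where 49.7% of all genes tested were above 0 and their median was -0.00. The exception was Itpr1, the calcium release channel of Purkinje cells, with 3694 CPM in 15Q and 3318 CPM in 84Q, a log2 fold change of -0.16 (SE 0.11) with an adjusted p of 0.467. No gene was called among 10 of inhibitory interneurons, 7 of unipolar brush cells, 8 of astrocytes and Bergmann glia, 8 of oligodendrocytes, 8 of microglia and 6 of endothelium. Over all genes 2.14%, 2.25% and 0.0% were called. Of the interneuron genes 5, 4 and 1 had an unadjusted p under 0.05, beside 19.4%, 17.7% and 4.68% of all genes. In 84Q against 15Q, Kit, Slc6a5 and Tfap2b (-0.25, adjusted p of 0.0898) were lower, and Slc32a1 and Pvalb (0.25, adjusted p of 0.0876) higher. Pvalb was at 0.30 in 84Q+IGF-1 against 15Q (adjusted p of 0.0484), also under 1.5-fold. At an unadjusted p under 0.05, 7 of the 8 oligodendrocyte genes passed in 84Q+IGF-1 against 84Q, where 4.68% of all genes did. All 7 were lower in 84Q+IGF-1. The list summed to 5085, 4138 and 4054 CPM in the 84Q libraries and to 3097, 3837 and 4064 CPM in the 84Q+IGF-1 libraries, so the groups overlapped, with 84Q replicate 1 above and 84Q+IGF-1 replicate 1 below the rest. Without 84Q replicate 1, 2 of the 8 passed, and without 84Q+IGF-1 replicate 1, 1 of the 8. All 8 estimates were lower in 84Q+IGF-1 in both of these fits, with medians of -0.15 and -0.16 in place of -0.25. Of the 8 microglial genes 4 passed in 84Q against 15Q, where 19.4% of all genes did, and all 4 were higher in 84Q, among them Csf1r, the receptor for a microglial growth factor, at 0.37 with an unadjusted p of 0.000284. Without 15Q replicate 2, 2 of the 8 passed. Forebrain and brainstem lists had 4 genes each past the filter and 0 called. The Purkinje cell genes summed to 7693 CPM ± 199 (SD, n = 3) over the 15Q libraries, 7531 ± 395 over 84Q and 7692 ± 437 over 84Q+IGF-1, and Itpr1 had the highest CPM of the list.

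**Figure D4:**
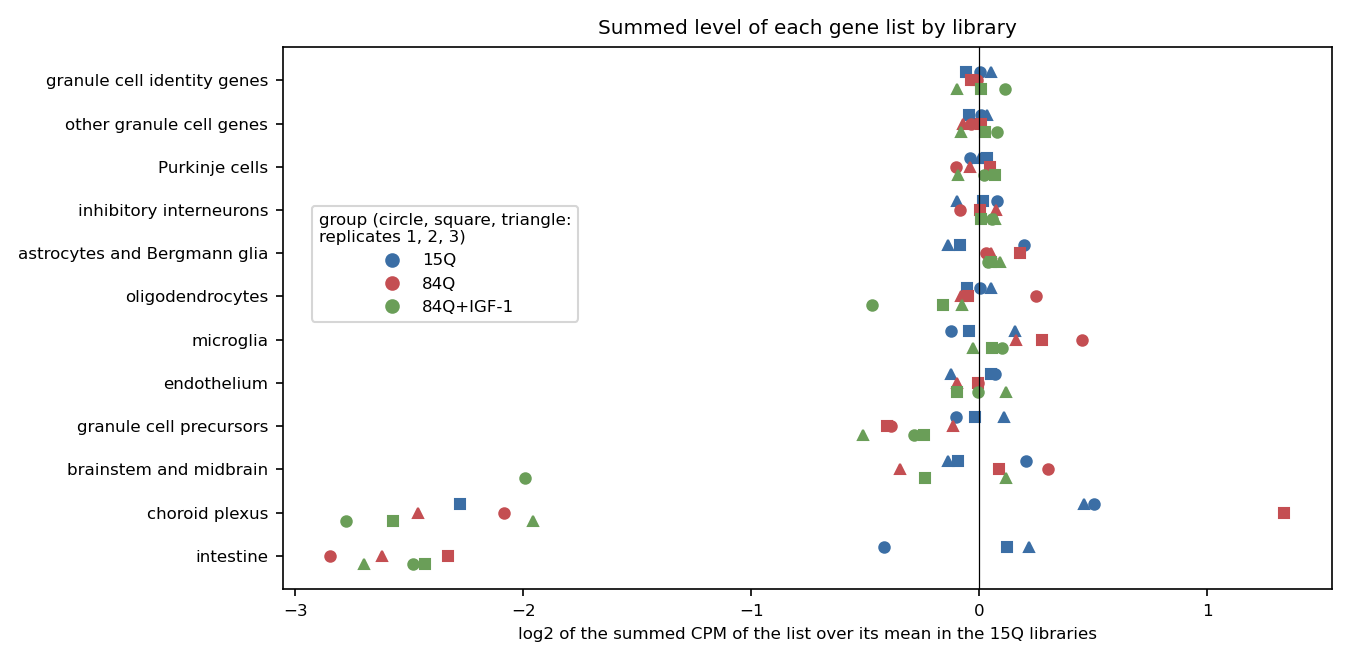
Summed CPM of each gene list in each of the 9 libraries, as the log2 ratio to the mean of the 15Q libraries (x axis), with groups in colour and replicates as symbols. The granule cell sums lie within 6366 to 7377 CPM, while the choroid plexus sums run from 119 to 2059 CPM and the intestinal sums separate 15Q from the other groups.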

How the data were processed

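Counts of reads per gene were used as the authors deposited them, for 37816 genes. Per the labels and the study's methods, strand-specific paired-end libraries were base-called with bcl2fastq 2.20, trimmed with Trimmomatic 0.36, aligned to GRCm38.p6 (mm10) with HISAT2 2.2.0 and counted with featureCounts. Its annotation release and strand setting are not given in the sources used here, so reads of overlapping genes may be assigned either way.

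The quasi-likelihood test of edgeR 4.0.16 under R 4.3.3 was applied to the counts of the 9 libraries in 1 fit, with TMM factors, filterByExpr and p-values adjusted by Benjamini-Hochberg over 19353 genes; p-values are two-sided and measure the spread between the mice. DESeq2 1.42.0 was an alternative. TPM used exon lengths of GENCODE vM21. Log2 CPM used a prior count of 2. Scripts were tested on simulated data. Promoter windows are from RefSeq.

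The genes and lists were chosen with earlier results of these data known. Of other lists, the rule named called genes, or otherwise the 3 of highest CPM and the 1 of largest change, and not all of these are printed. Genes named outside it, among them Gabrd, Gabra2, Etv5, Gli1 and Csf1r, were chosen after their values were seen. Some items of the lists are not reported here.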

Additional observations from a re-analysis of the deposited data

How the results depend on the processing

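No granule cell gene was called at any of 16 other settings of the fit. With all 9 libraries and the settings of the report, none was called at an adjusted p under 0.05 or with no fold change threshold. With no fold threshold, an adjusted p under 0.1 was reached by Slc17a7 in 84Q against 15Q without the filter on low counts (0.0417) and without 84Q+IGF-1 replicate 1 (0.0891), and by Zic2 in 84Q+IGF-1 against 15Q without 15Q replicate 1 (0.079). Of 480 alternative values for the 30 log2 fold changes, 439 kept their sign and 41 changed it, none lay past 1.5-fold, and all ran from -0.24 to 0.32. A sign changed only for main values of at most 0.09. With DESeq2, Zic1 in 84Q against 15Q and Cbln3 in 84Q+IGF-1 against 84Q were 0.00. With Xist as a covariate, 84Q+IGF-1 against 15Q gave -0.01 for Pax6, 0.01 for Fat2 and 0.04 for Etv1. Without the 3 libraries high in choroid plexus genes, an alternative chosen after seeing the data that leaves 1 library of 15Q, 84Q against 15Q gave 0.03 for Neurod1, 0.03 for Zic1, 0.08 for Fat2 and 0.05 for the median of the 10, 84Q+IGF-1 against 15Q gave 0.00 for Cbln3 and 0.18 for Fat2, and 84Q+IGF-1 against 84Q gave -0.02 for Gabra6, -0.00 for Cbln1 and 0.01 for Cbln3.

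Leaving out 1 library at a time turned these signs. In 84Q against 15Q, the median of the 10 ran from -0.03 to 0.02, Neurod1 from -0.10 to 0.01, Zic1 from -0.03 to 0.02, Cbln1 from -0.02 to 0.07 and Fat2 from -0.18 to 0.04. In 84Q+IGF-1 against 15Q, the median ran from -0.02 to 0.07, Neurod1 from -0.15 to 0.04, Pax6 from -0.02 to 0.06, Zic1 from -0.02 to 0.07, Cbln1 from -0.05 to 0.14, Fat2 from -0.13 to 0.08 and Etv1 from -0.10 to 0.04. In 84Q+IGF-1 against 84Q, Gabra6 ran from -0.05 to 0.11, Neurod1 from -0.11 to 0.07, Zic1 from -0.02 to 0.08, Cbln1 from -0.08 to 0.11, Cbln3 from -0.05 to 0.05, Fat2 from -0.03 to 0.13, Slc17a7 from -0.19 to 0.00 and the median of the 10 from -0.03 to 0.08. The cause was not tested. Genes with groups that did not overlap numbered 2 to 4, 0 to 2 and 0 to 2 in the 3 comparisons. Groups with fewer libraries separate more often, and the share over all genes was not taken for these sets. The counts are therefore not to be read as a rise.

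Samples with the same replicate number did not deviate together (correlations of -0.309 to 0.0788), which cannot show whether the mice were paired. The labels name no pairing. The sample codes of replicate 1 in 84Q and 84Q+IGF-1 begin alike, as do those of replicate 3, and the meaning of the codes is not given. With the replicate block 4 in place of 7 oligodendrocyte genes had an unadjusted p under 0.05 in 84Q+IGF-1 against 84Q, 0 members were called and Slc17a7 in 84Q against 15Q was at 0.22 with an adjusted p of 0.291. Gabrb2 was then at -0.59 (0.125) and Ccnd2 in 84Q+IGF-1 against 15Q at -0.68 (0.106), neither called, and all genes called fell from 414 to 242 in 84Q against 15Q and from 435 to 271 in 84Q+IGF-1 against 15Q. Without the filter the calls were 1025, 1284 and 168, with Xist as a covariate 274, 320 and 0, and without the libraries high in choroid plexus genes 94, 189 and 9. DESeq2 called 521, 588 and 6 genes. Leaving out 1 library gave 184 to 551, 226 to 629 and 0 to 9 calls. With 3 mice in a group, changes of these genes inside the intervals given could have been missed.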
